A study of Mus musculus with 4 samples.

Results

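The Hox genes of the uterus at the end of mouse pregnancy are described here from RNA sequencing of uterine tissue, in wildtype (WT) mice and in mice without the Qa-2 antigen (Qa-2-). A member is any protein-coding gene whose symbol is Hoxa, Hoxb, Hoxc or Hoxd followed only by a number. The rule gave 39 of the 55421 genes listed, of which 11 lie in the HoxA cluster, 10 in HoxB, 9 in HoxC and 9 in HoxD. WT mice were C57BL/6J (n = 2). Qa-2- mice were B6.Cg-H2b3/FlaCmwJ, also called B6.K1 (n = 2), a strain congenic for the H2 region, with C57BL/6 as its background, that lost Qa-2 spontaneously, so the groups are 2 inbred strains that can also differ elsewhere in or near the H2 region. No treatment is listed for either group, matings were within the strain, and uteri were taken at E18.5 (embryonic day), with 1 library per uterus. The comparison asks whether Hox levels differed between pregnant uteri with and without Qa-2.

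Hox genes encode homeodomain transcription factors that give cells along the head-to-tail axis their positional identity. They stand in 4 clusters in which the gene order follows the order of expression along the body, with low paralog numbers used toward the head and high numbers toward the tail. In the female tract, which forms from the Müllerian duct, HoxA genes of high number are laid out in order: Hoxa9 is known from the oviduct, Hoxa10 from the uterus, Hoxa11 from the uterus and cervix, and Hoxa13 from the cervix and upper vagina. Female mice without Hoxa10 or Hoxa11 are known for failed implantation and poor decidualization.

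On GRCm38, the HoxA members span chr6:52155590-52260880, HoxB spans chr11:96194316-96368256, HoxC spans chr15:102921103-103036852 and HoxD spans chr2:74668310-74765142. No cluster is on chromosome 17, where the H2 region lies. Promoter sequences, from 250 bases before to 50 bases after the RefSeq start on GRCm38.p6, are given for Hoxa10 and Hoxa11, the members with the highest levels, and for Hoxb8 and Hoxd10, which had the widest range over libraries among the tested members of their clusters. They lie at chr6:52240805-52241104 on the minus strand, chr6:52245761-52246060 on the minus strand, chr11:96281655-96281954 on the plus strand and chr2:74691641-74691940 on the plus strand, in that order. Capitals mark a match, on either strand, to TGACAG (a Meis-type site), TGATNNAT (a Pbx-Hox type site) or TTTATG (a site of posterior Hox and Cdx type), and matches may overlap.
Hoxa10: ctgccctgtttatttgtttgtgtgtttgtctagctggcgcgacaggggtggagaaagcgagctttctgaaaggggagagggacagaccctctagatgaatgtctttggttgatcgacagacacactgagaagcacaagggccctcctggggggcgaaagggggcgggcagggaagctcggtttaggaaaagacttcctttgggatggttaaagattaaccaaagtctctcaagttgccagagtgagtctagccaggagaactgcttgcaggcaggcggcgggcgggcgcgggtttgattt
Hoxa11: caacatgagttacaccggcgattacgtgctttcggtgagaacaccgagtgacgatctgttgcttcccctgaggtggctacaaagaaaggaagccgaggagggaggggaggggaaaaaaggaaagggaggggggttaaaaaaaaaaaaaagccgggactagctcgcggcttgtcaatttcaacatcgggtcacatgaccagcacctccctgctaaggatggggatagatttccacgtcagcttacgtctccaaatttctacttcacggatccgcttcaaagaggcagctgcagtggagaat
Hoxb8: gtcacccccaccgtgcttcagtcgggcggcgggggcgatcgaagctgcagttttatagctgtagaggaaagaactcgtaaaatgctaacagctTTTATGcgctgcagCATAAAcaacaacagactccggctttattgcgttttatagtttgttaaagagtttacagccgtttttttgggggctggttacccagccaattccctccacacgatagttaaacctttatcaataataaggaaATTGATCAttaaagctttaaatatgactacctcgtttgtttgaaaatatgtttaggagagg
Hoxd10: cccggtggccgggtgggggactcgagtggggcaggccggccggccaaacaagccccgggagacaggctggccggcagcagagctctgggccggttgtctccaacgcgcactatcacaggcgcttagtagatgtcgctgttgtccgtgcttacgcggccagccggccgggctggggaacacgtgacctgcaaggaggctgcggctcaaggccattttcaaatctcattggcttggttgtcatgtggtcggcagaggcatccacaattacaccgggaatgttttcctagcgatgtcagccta
Hoxb8 held 3 matches, 1 to TGATNNAT and 2 to TTTATG, and the windows of Hoxa10, Hoxa11 and Hoxd10 held none of these letters. Over the 24 promoters of the 22 members with an entry, 8.33% held TGACAG, 16.7% held TGATNNAT and 20.8% held TTTATG, against 19.2%, 8.85% and 11.9% of all 32851 promoters. The dinucleotide CG occurred 12 times in the Hoxa10 window, 15 times in Hoxa11, 13 times in Hoxb8 and 22 times in Hoxd10, and the median was 13.5 for member promoters against 7 for all promoters.

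The 4 libraries held between 33286390 and 41041299 counted read pairs, with both WT libraries deeper, and the floor of 3 counts stood at 0.0747 to 0.0858 CPM (counts scaled to a common library size), counting error only. Counts of the Qa-2 genes followed the labels: H2-Q6 had 4204 and 1192 counts in WT replicates 1 and 2 and 3 in each Qa-2- library, and H2-Q7 had 6318 and 1251 against 4 and 2, so that WT replicate 2 was well below WT replicate 1. Libraries within a group also differed in make-up. The summed level of 10 myometrium markers ran from 27420 to 45560 CPM in WT and from 12990 to 24280 CPM in Qa-2-. Trophoblast markers summed to 30.7 CPM in WT replicate 2 and to 0.172 to 3.66 CPM elsewhere, with 5 of the 12, including Prl3d1 and Gcm1, at 0 in all libraries. Visceral yolk sac markers summed to 562.9 CPM in Qa-2- replicate 1 and to 9.69 to 53.9 CPM elsewhere. In whole tissue, fewer cells of a type and less RNA per cell cannot be told apart.

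The label of the tissue was checked against its neighbours along the tract. The uterine gene Pgr, the progesterone receptor, stood at 175 and 279 CPM in WT and at 247 and 195 CPM in Qa-2-. Of 14 markers of the stratified epithelium of cervix and vagina, 3 reached the filter used below, the summed level was 8.86 to 16.2 CPM in WT and 13.1 to 33.3 CPM in Qa-2-, the keratin Krt4 made up most of it in Qa-2- replicate 1 (25.2 CPM), the basal keratin Krt5 was at most 1.01 CPM and Sprr3 was at 0. Of 8 oviduct markers, 3 reached the filter and Tppp3 made up most of the summed 86.4 to 105.1 CPM, while the oviductal glycoprotein gene Ovgp1 was at 1.10 to 1.74 CPM and Ccdc153 at 0. Pgr was thus plentiful, and most markers of cervix, vagina and oviduct were low. Pgr alone does not settle the place of the tissue along the tract.

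The uterine Hox profile was set by Hoxa10 and Hoxa11. Of the 39 members, 21 reached 1 CPM in at least 2 libraries (6 HoxA, 8 HoxB, 2 HoxC and 5 HoxD) and were tested, and 18 did not. To compare genes with each other, CPM was divided by the exon length in kilobases. On this scale Hoxa11 stood highest with a mean over the 4 libraries of 51.5 CPM per kb, and Hoxa10 followed with 46.3 CPM per kb. Their ranges overlapped each other, and both stood above every other member in every library. Hoxb6 (20.1), Hoxd9 (17.7), Hoxd10 (17.4), Hoxb8 (15.6), Hoxb7 (14.7) and Hoxd8 (13.7 CPM per kb) formed a tier in which each overlapped the next. The next tier ran from Hoxb2 at 4.48 to Hoxb9 at 1.57 CPM per kb and held Hoxb3, Hoxa9, Hoxd11, Hoxb5, Hoxb4 and Hoxa7. Hoxd4, Hoxc6, Hoxa5 and Hoxc11 lay between 1.06 and 0.617, and Hoxa3 was last of those tested at 0.328 CPM per kb. The exon length is that of all annotated exons of a gene together, from 6014 bases for Hoxa3 and 5580 for Hoxa9 down, and the transcripts used in the uterus were not resolved.

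**Figure D1:**
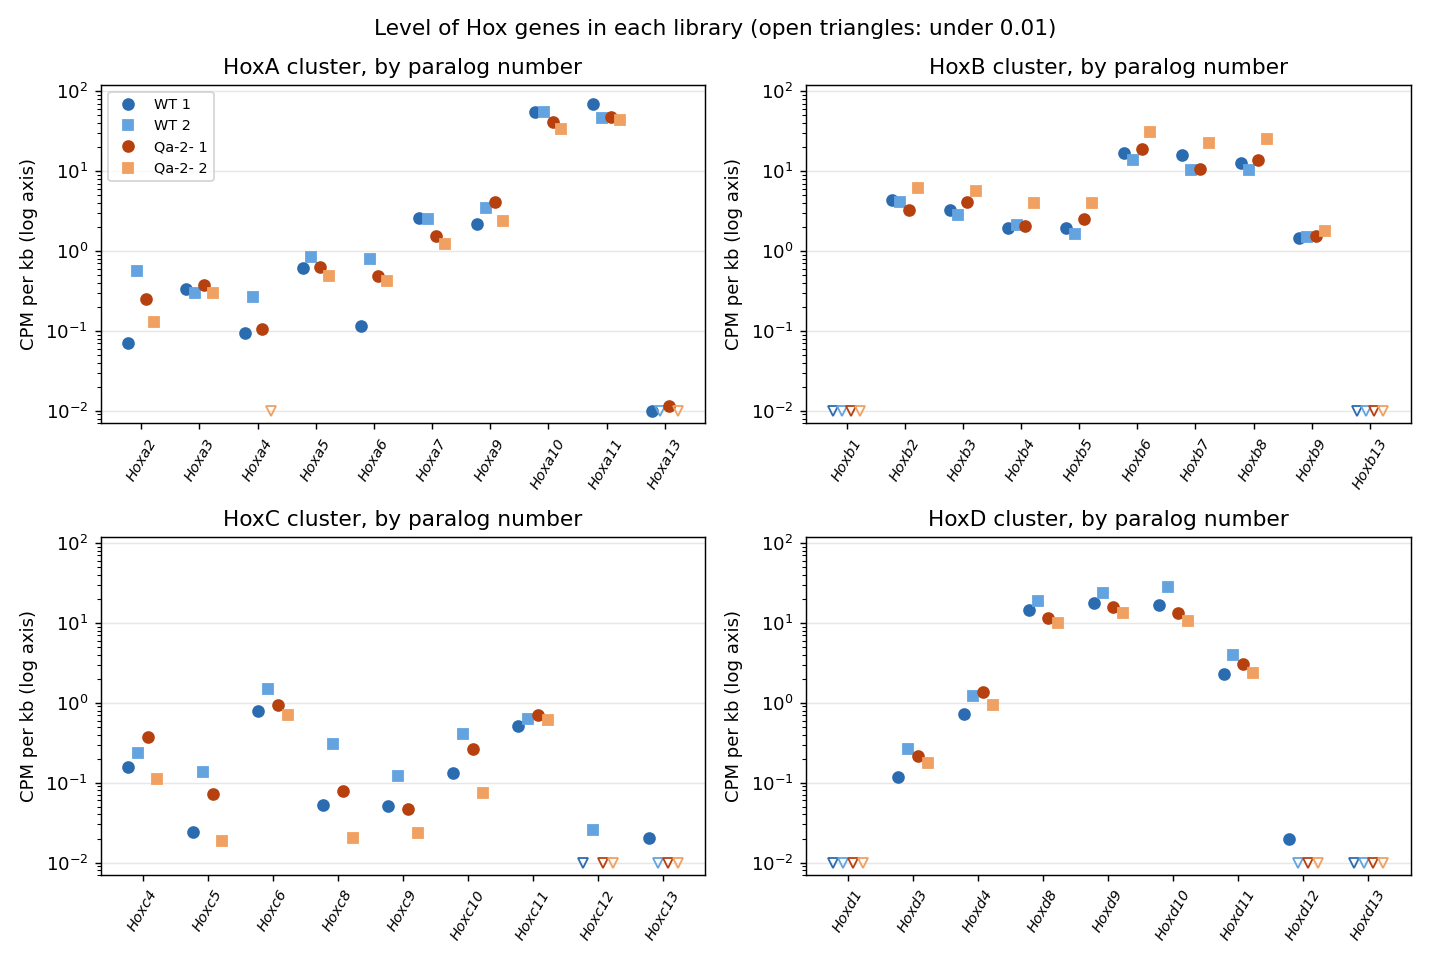
Level of the Hox genes in each library, in CPM per kb of exon on a log axis, with the members shown ordered by paralog number within the 4 clusters (blue, WT replicates 1 and 2; red and orange, Qa-2- replicates 1 and 2; open triangles, under 0.01). Levels were highest at Hoxa10 and Hoxa11 in HoxA, at Hoxb6 to Hoxb8 in HoxB and at Hoxd8 to Hoxd10 in HoxD, and every gene of paralog group 13 was at or near 0.

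The genes at the tail end of each cluster were nearly silent. Hoxa13 had 1 count in replicate 1 of each group and 0 in the others. Hoxc13 had 2 counts in WT replicate 1 and 0 elsewhere, and Hoxb13 and Hoxd13 had 0 counts in all 4 libraries, which allows up to 3 counts or 0.0747 to 0.0858 CPM. Hoxc12 and Hoxd12 had at most 1 and 2 counts in a library. At the head end, Hoxb1, a hindbrain gene, and Hoxd1 had 0 counts everywhere. In all, 8 members had at most 3 counts in every library, and HoxC as a whole gave 0.636% to 1.29% of the Hox counts of a library.

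The other 10 members under the filter had low but present counts, at most 42 in a library. Hoxa2 had 5 and 38 counts in WT against 16 and 8 in Qa-2-, Hoxa4 had 6 and 16 against 6 and 0, and Hoxa6 had 4 and 26 against 15 and 13. Hoxc8 had 6 and 33 against 8 and 2, Hoxc5 had 3 and 16 against 8 and 2, Hoxc9 had 5 and 11 against 4 and 2, and Hoxc10 had 10 and 29 against 18 and 5. Hoxc4 had 16 and 23 against 34 and 10, and Hoxd3 had 20 and 42 against 32 and 26. Of these 10 members, 8 had their highest CPM in WT replicate 2 and the other 2 in replicate 1 of Qa-2-, whereas 28.4% and 24.3% of the 7972 genes under the filter with more than 3 counts in a library were highest there. These are also the libraries with the highest trophoblast and yolk sac marker sums, and the part of those in the low Hox counts was not tested. Exons shared with another gene on the same strand made up 62.3% of Hoxd3, 52.3% of Hoxd4, 15% of Hoxa2, 10.8% of Hoxd11 and under 10% of 5 further members (Hoxa3, Hoxa9, Hoxc5, Hoxc10 and Hoxd10). Pairs overlapping several genes were not counted, so their levels are uncertain and may be too low.

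Between WT and Qa-2- uteri no Hox member passed the test. By the quasi-likelihood test of edgeR, with p-values adjusted by Benjamini-Hochberg over all genes, 0 of the 21 tested members had an adjusted p under 0.05, as had 0 of all 14492 genes tested (0% called), and the adjusted p of members ran from 0.281 to 0.903. At an unadjusted p under 0.05, 4 members were higher in WT (19.0% of those tested, against 8.09% of all genes) and 3 were higher in Qa-2- (14.3%, against 7.09%). With DESeq2, 0 members passed an adjusted p under 0.05, against 4.83% of all genes. Both WT libraries stood above both Qa-2- libraries in 5 members (23.8%, against 25.4% of all genes), and the reverse held in 5 others (23.8%, against 24.5%), near the all-gene share in either direction. The balance over all genes depended on the scaling. With library totals in place of TMM, the WT side held 5 members (23.8%) and 18.7% of all genes, the Qa-2- side held 7 members (33.3%, with Hoxb4 and Hoxc11 added) and 32% of all genes, and the counts at an unadjusted p under 0.05 were 4 and 4 members and 852 and 1457 genes. The counts at an unadjusted p under 0.05, first on the WT side and then on the Qa-2- side, were 3 and 3 without WT replicate 1, 4 and 5 without Qa-2- replicate 1, 1 and 0 without WT replicate 2, and 0 and 0 without Qa-2- replicate 2. Over all genes, where all 4 libraries gave 1172 and 1027, the counts in the same order were 971 and 1317, 1006 and 775, 974 and 936, and 448 and 370. Without WT replicate 2 the member counts were thus lower while those over all genes stayed near their size, and without Qa-2- replicate 2 both were lower. In that last case the log2 fold changes of Hoxa7, Hoxa10, Hoxd8 and Hoxd10 were 0.71, 0.43, 0.54 and 0.75 against 0.88, 0.56, 0.63 and 0.91. Those of Hoxb3, Hoxb5 and Hoxb6 were -0.43, -0.49 and -0.32 against -0.66, -0.86 and -0.70. Without WT replicate 2 the log2 fold changes in the same order were 0.90, 0.57, 0.44 and 0.48, and -0.57, -0.75 and -0.56. There, Hoxd8 and Hoxd10 shrank most, and Hoxa7 and Hoxa10 kept their size. The log2 fold change (WT over Qa-2-) of the 21 members had a median of -0.13, against 0.01 for all genes, and ran from -0.86 to 0.91. The sign of this median was not stable, at 0.08 without Qa-2- replicate 1, 0.04 without Qa-2- replicate 2, 0.00 without WT replicate 1 and 0.22 with no filter.

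**Figure D2:**
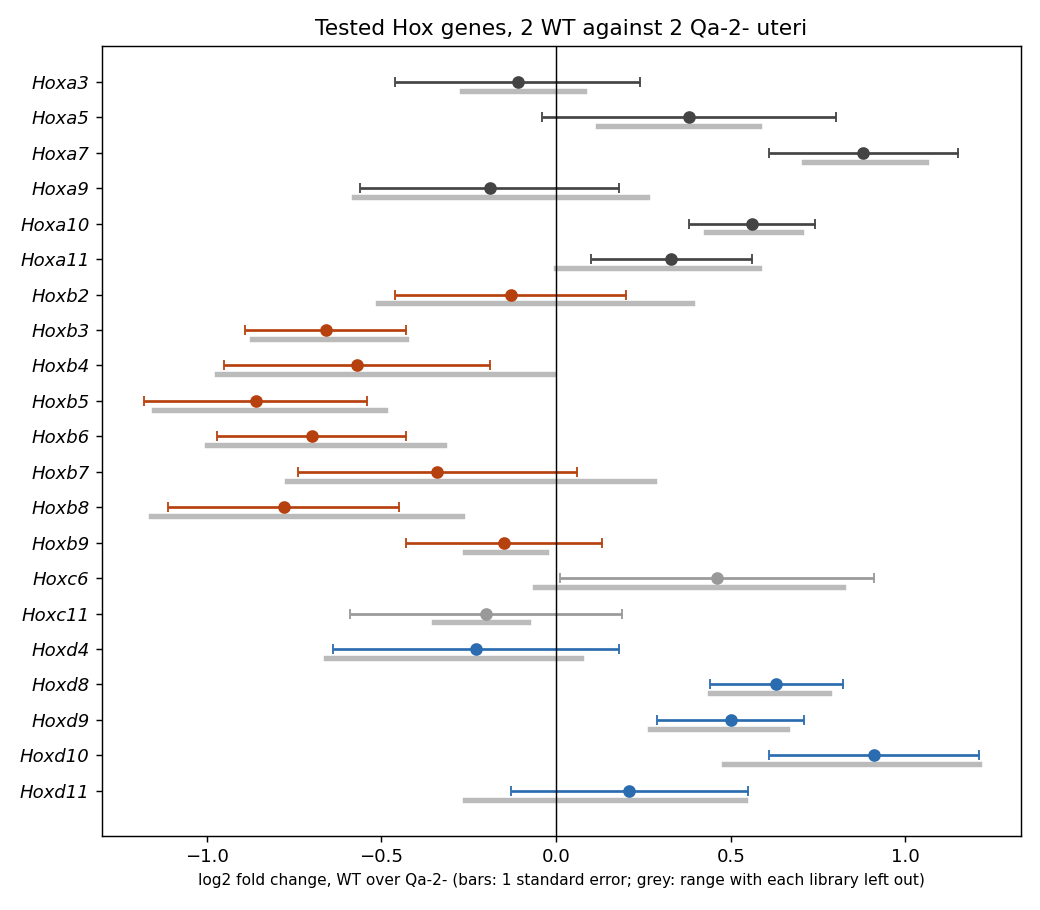
Log2 fold change, WT over Qa-2-, of the 21 tested Hox genes in cluster order, with bars of 1 standard error and, in grey, the range when each of the 4 libraries was left out in turn. Hoxa5, Hoxa7, Hoxa10 and Hoxd8 to Hoxd10 lie right of 0 and Hoxb3 to Hoxb6, Hoxb8, Hoxb9 and Hoxc11 left of 0 over their whole grey range, although that of Hoxb4 reaches -0.01.

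The cluster medians lay on different sides of 0. The median log2 fold change was 0.36 for the 6 tested HoxA members and 0.50 for the 5 HoxD members, and -0.62 for the 8 HoxB members. All 8 HoxB members were below 0, whereas Hoxa3, Hoxa9 and Hoxd4 were also below 0 in their clusters and the HoxC members Hoxc6 (0.46) and Hoxc11 (-0.20) went both ways. Members that did not overlap between groups and were higher in WT were all HoxA or HoxD genes, and those higher in Qa-2- were all HoxB genes, joined by Hoxc11 on the scale of library totals. Neighbouring genes of a cluster share control regions and libraries and are not independent of each other.

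In HoxA, Hoxa10 had 182 and 179 CPM in WT and 134 and 111 CPM in Qa-2-, or 180.5 ± 2.13 against 122 ± 16.3 (mean ± SD, n = 2 each). Both WT values lay above both Qa-2- values. Its log2 fold change was 0.56 (SE 0.18, adjusted p = 0.294, edgeR), and 0.43 to 0.70 when single libraries were left out. Hoxa11, its neighbour, had 156 and 106 CPM in WT and 107 and 101.0 CPM in Qa-2-. Here WT replicate 1 stood apart and the other 3 libraries lay together, so that the log2 fold change of 0.33 (SE 0.23, adjusted p = 0.528, edgeR) went to 0.00 without that library. The ratio of Hoxa10 to Hoxa11, both in CPM per kb, was 0.815 and 1.18 in WT and 0.870 and 0.767 in Qa-2- (exact permutation test, two-sided p = 0.67, adjusted p = 0.67 over 6 such tests). The groups overlapped in this ratio, and their difference went from 0.178 to -0.00365 without WT replicate 2.

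Hoxa7, a gene of thoracic identity in the embryo, had 7.50 and 7.21 CPM in WT and 4.48 and 3.52 CPM in Qa-2-, with a log2 fold change of 0.88 (SE 0.27, adjusted p = 0.282, edgeR) and 0.71 to 1.06 with single libraries left out. The groups were separate by more than the spread within either. Hoxa9, the oviduct gene of the series, had 12.1 and 19.5 CPM in WT and 22.9 and 13.2 CPM in Qa-2-, and the groups overlapped (log2 fold change -0.19, and -0.58 to 0.26 with single libraries left out). Hoxa3 (1.80 to 2.28 CPM) and Hoxa5 (0.915 to 1.59 CPM, a gene best known from lung development) were near the filter, with groups that overlapped for Hoxa3 and for Hoxa5 alike.

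The HoxB genes had a different pattern, in which Qa-2- replicate 2 led. All 8 tested HoxB members were highest in that library, as were 28.5% of all genes tested. Hoxb8 had 33.4 and 26.9 CPM in WT and 36.3 and 67.5 CPM in Qa-2- (log2 fold change -0.78, SE 0.33, adjusted p = 0.346, edgeR). Qa-2- replicate 1 lay just above WT replicate 1, and Qa-2- replicate 2 was 2.10 times the mean of the other 3 libraries. Hoxb6 had nearly the same values, 33.4 and 26.9 CPM in WT and 37.7 and 60.1 CPM in Qa-2- (log2 fold change -0.70, SE 0.27, adjusted p = 0.325, edgeR). Leaving out that library gave log2 fold changes of -0.27 for Hoxb8 and -0.32 for Hoxb6.

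Hoxb5 had 5.43 and 4.61 CPM in WT and 7.04 and 11.2 CPM in Qa-2-, the lowest log2 fold change among members at -0.86 (SE 0.32, adjusted p = 0.316, edgeR), and -0.49 without Qa-2- replicate 2. Hoxb3 had 14.1 and 12.1 CPM in WT and 17.6 and 23.9 CPM in Qa-2-, with a log2 fold change of -0.66 (SE 0.23, adjusted p = 0.302, edgeR) and -0.43 without that library. In both genes the Qa-2- libraries stood above the WT libraries with or without it. Hoxb4, studied mostly in blood stem cells, had 5.01 and 5.44 CPM in WT and 5.27 and 10.2 CPM in Qa-2-, and its log2 fold change of -0.57 (SE 0.38) went to -0.01 without it. Hoxb7 had 24.3 and 15.9 against 16.6 and 34.3 CPM, and Hoxb2 had 15.4 and 14.5 against 11.4 and 21.2 CPM. These 3 genes overlapped between groups, and for Hoxb7 and Hoxb2 the sign turned without Qa-2- replicate 2, to 0.28 and 0.39. Hoxb9 was the flattest of the cluster, with 3.76 and 3.90 CPM in WT and 3.92 and 4.57 CPM in Qa-2-.

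**Figure D3:**
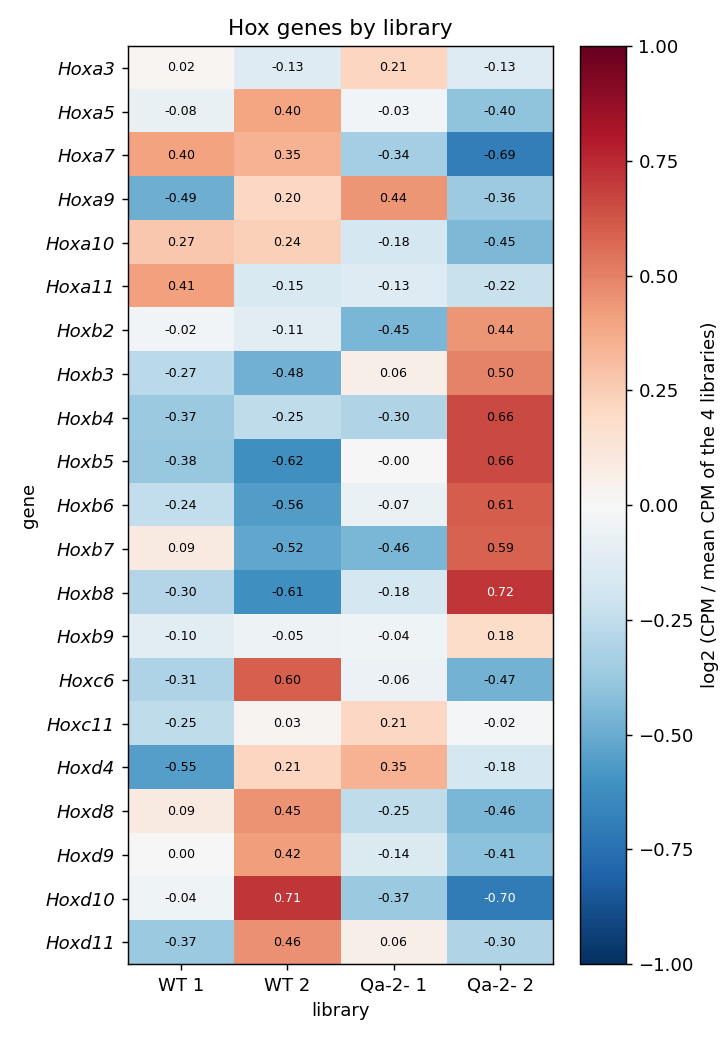
Level of the 21 tested Hox genes in each library, as the log2 difference of CPM from the mean of that gene over the 4 libraries, with genes in cluster order (red, above the mean; blue, below). The HoxB rows are highest in the Qa-2- replicate 2 column, up to 0.72 for Hoxb8, and Hoxd8 to Hoxd11 are highest in the WT replicate 2 column, up to 0.71 for Hoxd10.

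In HoxD, WT replicate 2 led 4 of the 5 tested members, and 27.5% of all genes tested. Hoxd10, active in the posterior trunk and limb, had 30.6 and 51.8 CPM in WT and 24.4 and 19.4 CPM in Qa-2-, the highest log2 fold change among members at 0.91 (SE 0.30, adjusted p = 0.294, edgeR). The groups did not overlap, WT replicate 2 was 2.09 times the mean of the others, and the log2 fold change was 0.48 without it. Hoxd8 had 40.1 and 51.5 CPM in WT and 31.6 and 27.4 CPM in Qa-2- (log2 fold change 0.63, SE 0.19, adjusted p = 0.281, edgeR). Hoxd9 had 37.8 and 50.6 CPM in WT and 34.2 and 28.4 CPM in Qa-2- (log2 fold change 0.50, SE 0.21, adjusted p = 0.352, edgeR). In both the WT libraries lay above the Qa-2- libraries, and the log2 fold changes without WT replicate 2 were 0.44 and 0.27. Hoxd11, which acts in limb and kidney development, had 9.54 and 16.9 against 12.8 and 10.01 CPM, and Hoxd4 had 2.14 and 3.63 against 4.0 and 2.77 CPM. Both overlapped between groups. The HoxC members tested also overlapped, with 1.92 and 3.61 against 2.28 and 1.72 CPM for Hoxc6 and 1.05 and 1.27 against 1.44 and 1.23 CPM for Hoxc11.

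Summed over a cluster, HoxA stood at 361.5 and 317.6 CPM in WT and at 273.6 and 232 CPM in Qa-2-, a ratio of means of 1.34. HoxD stood at 121 and 175.5 CPM in WT and at 108 and 88.7 CPM in Qa-2-, a ratio of 1.51. HoxB stood at 135 and 110.3 CPM in WT and at 136 and 233 CPM in Qa-2-, with WT 0.664 times Qa-2-. For these 3 clusters the groups did not overlap, although HoxB in Qa-2- replicate 1 was within 2 CPM of WT replicate 1, and the difference of means of HoxB went from -61.9 to -13.3 CPM without Qa-2- replicate 2. That of HoxD went from 49.7 to 22.3 CPM without WT replicate 2. Each of the 3 gave p = 0.33 in a two-sided exact permutation test (adjusted p = 0.49 over 6 tests), which is the smallest value that 2 against 2 libraries allow. HoxC, at 3.55 to 7.88 CPM, overlapped (exact permutation p = 0.67).

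**Figure D4:**
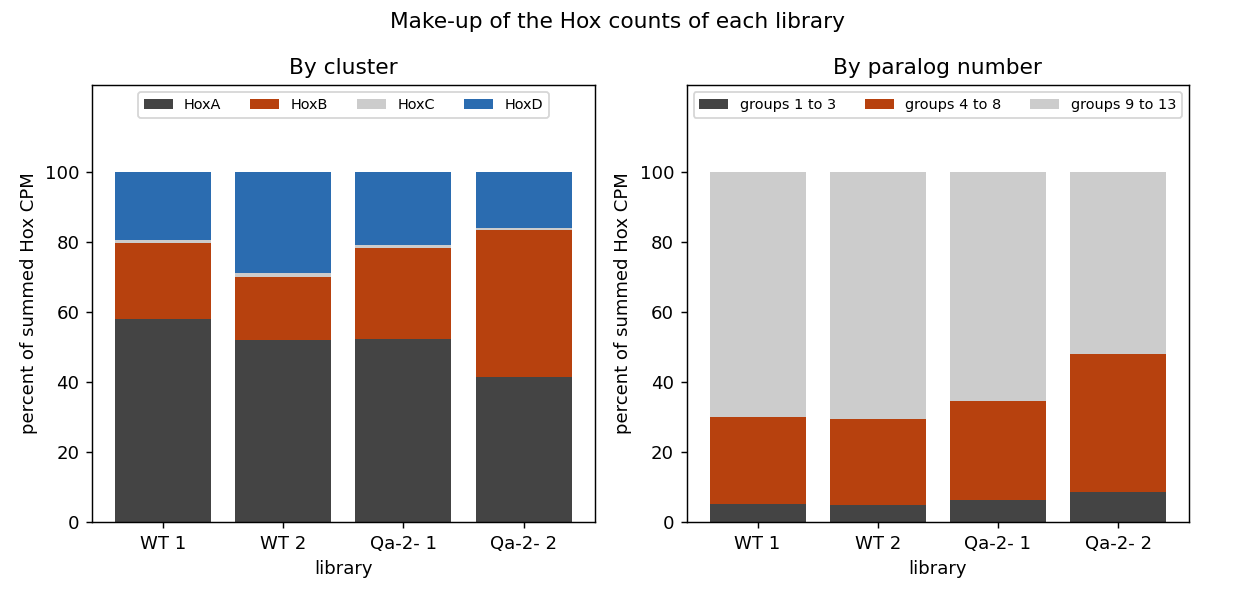
Percent of the summed Hox CPM of each library by cluster (left) and by paralog group (right), as stacked bars. HoxB took 18.0% to 26.0% in 3 libraries and 41.8% in Qa-2- replicate 2, where groups 9 to 13 made up 51.8%, against 65.3% to 70.4% in the others.

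By position along the clusters, paralog groups 9 to 13 gave 69.8% and 70.4% of Hox counts in WT and 65.3% and 51.8% in Qa-2-. Groups 4 to 8 gave 25% and 24.6% in WT and 28.4% and 39.6% in Qa-2-, and groups 1 to 3 gave 5.21% and 5.04% against 6.31% and 8.64%. The WT libraries lay close together with a larger posterior share than either Qa-2- library. The difference of 11.5 percentage points in groups 9 to 13 (exact permutation p = 0.33, adjusted p = 0.49 over 6 tests) was 4.77 points without Qa-2- replicate 2. Hoxa10 and Hoxa11 together gave 54.5% and 46.7% of Hox counts in WT and 46.1% and 38.0% in Qa-2-.

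Cell type markers moved alongside these sums. Over all genes, 8.09% had an unadjusted p under 0.05 on the WT side and 7.09% on the Qa-2- side. The groups did not overlap in 25.4% of all genes on the WT side and 24.5% on the Qa-2- side. Every list count below is to be read beside these shares. For myometrium, 9 of 10 smooth muscle markers had a log2 fold change above 0 (median 0.99, 0 at an unadjusted p under 0.05), 7 did not overlap between groups, and all were expressed. Their sum had the library order of HoxD, with WT replicate 2 highest and Qa-2- replicate 2 lowest, over a range of 3.51 times against 1.98 times for HoxD. This order was not particular to myometrium. The mesothelium markers summed to 131 and 139 CPM in WT and to 104 and 58.3 CPM in Qa-2-. The noncoding genes of the Hox clusters summed to 30.7 and 33.6 CPM in WT and to 27.8 and 26.7 CPM in Qa-2-. Per 1000 CPM of the myometrium sum, HoxD stood at 4.4 and 3.85 CPM in WT and at 4.44 and 6.83 CPM in Qa-2-. Replicate 1 of either group was nearly the same on this scale. Division by a sum of the same library order and a wider range can by itself turn the order, so no conclusion is drawn from it. HoxA per 1000 CPM of the myometrium sum was 13.2 and 6.97 in WT and 11.3 and 17.9 in Qa-2-, and the groups overlapped. The 7 endothelium markers, among them Pecam1 and Cdh5, were all higher in WT at an unadjusted p under 0.05 (median log2 fold change 1.04) and summed to 1206 and 1037 CPM in WT and 519 and 488 CPM in Qa-2-, the library order of HoxA. With DESeq2, 6 of these 7 and 2 of the 10 myometrium markers (Des and Tagln) had an adjusted p under 0.05. The part of myometrium and endothelium in the HoxA and HoxD values was not tested.

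For the uterine epithelium, 13 of 15 markers were tested and all 13 had a log2 fold change below 0 (median -0.77, 3 at an unadjusted p under 0.05, and 1, Krt19, at an adjusted p under 0.05 with DESeq2). The sum was 4574 and 2624 CPM in WT and 4733 and 9119 CPM in Qa-2-, with 1 count of Cxcl15 in all libraries together. The lactoferrin gene Ltf alone gave 4932 CPM in Qa-2- replicate 2. Without Ltf, a choice made after its values were seen, the sum was 3226 and 1999 CPM in WT and 4319 and 4187 CPM in Qa-2-. The epithelial adhesion gene Epcam stood at 211 and 110.3 CPM in WT and at 200.2 and 365 CPM in Qa-2-, highest in the library where HoxB was highest. Per 1000 CPM of the epithelium sum without Ltf, HoxB was at 41.7 and 55.2 in WT and 31.4 and 55.7 in Qa-2-, and the groups overlapped. The part of the epithelium in the HoxB values was not tested.

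**Figure D5:**
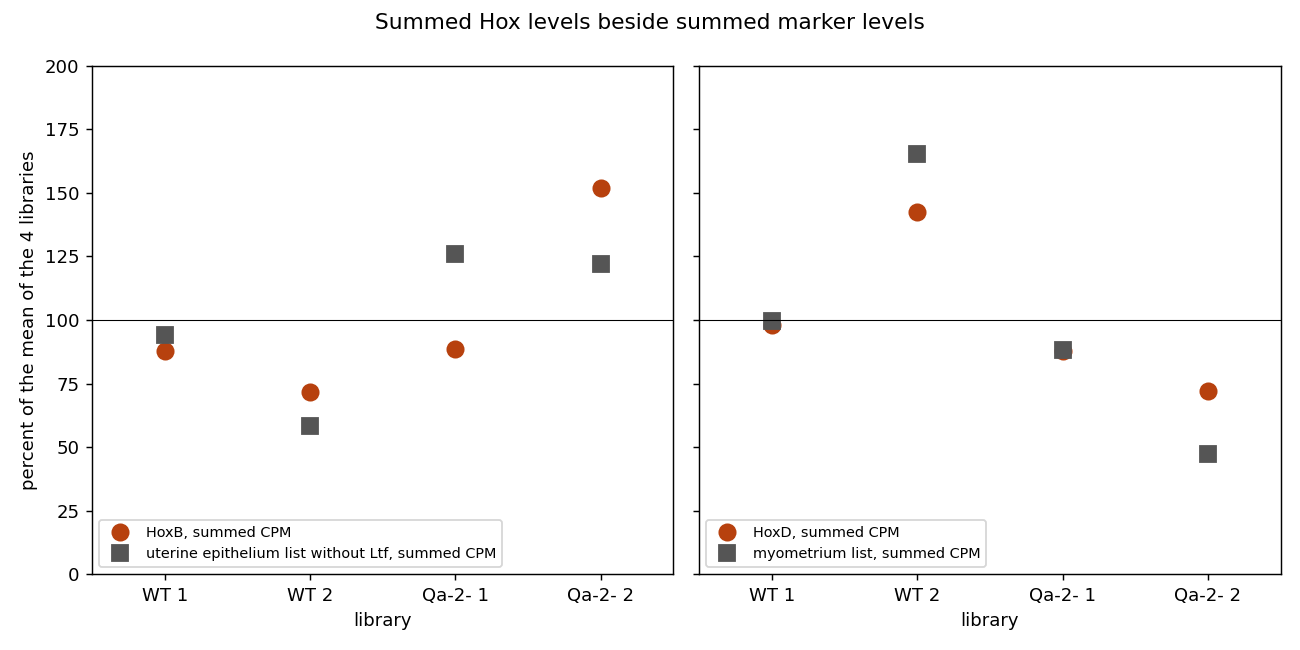
Summed CPM of HoxB beside the uterine epithelium markers without Ltf (left) and of HoxD beside the myometrium markers (right), each as a percent of its mean over the 4 libraries (circles, Hox; squares, markers; line, the mean). HoxD ran in the order of the myometrium sum, from 142% in WT replicate 2 to 72.0% in Qa-2- replicate 2, and HoxB was lowest in WT replicate 2 with the epithelium sum but peaked alone in Qa-2- replicate 2 at 152%.

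Hox proteins bind DNA with TALE homeodomain partners of the Pbx, Meis and Pknox families. Of 11 TALE genes, 10 were tested and 0 had an unadjusted p under 0.05 in either direction (median log2 fold change 0.17). Meis2 had the largest value, 0.46 (SE 0.23), and Tgif1, a repressor of the family, the smallest, -0.29 (SE 0.20).

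Among 10 listed noncoding genes of the clusters, 4 were tested and 0 had an unadjusted p under 0.05. Hoxa11os, transcribed opposite to Hoxa11, had 22.2 and 17.7 CPM in WT and 16.8 and 17.2 CPM in Qa-2-, with WT replicate 1 highest as for Hoxa11. Hoxd3os1 had 4.31 and 10.4 CPM in WT and 5.55 and 4.63 CPM in Qa-2-, and was highest in WT replicate 2 as were Hoxd8 to Hoxd11. The HoxB antisense genes did not peak with their partners in Qa-2- replicate 2: Hoxb3os had 1.94 and 3.21 CPM in WT and 3.21 and 2.83 CPM in Qa-2-, and Hoxb5os had 0.972 and 1.56 against 1.52 and 1.46 CPM. Counting used the strand, so reads of these genes are kept apart from those of their Hox partners. Hotair, of the HoxC cluster, had at most 7 counts and Hottip, beside Hoxa13, at most 1. Outside the clusters, 12 of 15 flanking genes were tested (median log2 fold change -0.08), and Ttll6 beside HoxB was the 1 with an unadjusted p under 0.05 (-2.44, SE 0.93), with 8.87 CPM in Qa-2- replicate 1 and 0.673 to 1.40 CPM elsewhere. Evx1 and Evx2, the homeobox neighbours of HoxA and HoxD, had 0 counts, and 5 of 6 ParaHox and Cdx genes had 0 counts in all libraries.

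Polycomb proteins keep Hox genes silent and Trithorax proteins keep them active. All 21 Polycomb genes were tested and 0 had an unadjusted p under 0.05 (median log2 fold change -0.21, with 16 below 0), from -0.39 (SE 0.16) for Cbx7 to 0.53 (SE 0.34) for Phf19. Of 8 Trithorax and H3K27 demethylase genes, 3 had an unadjusted p under 0.05, all with higher values in Qa-2-, against 7.09% of all genes. These were Kmt2b (-0.63, SE 0.16), Kdm6a (-0.59, SE 0.16) and Kmt2a (-0.51, SE 0.16), and none of them passed after adjustment. The median of the 8 was -0.26.

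Retinoic acid is the signal that switches on Hox genes in order in the embryo. Of 18 pathway genes, 14 were tested, with a median log2 fold change of 0.00. At an unadjusted p under 0.05, 4 were on the WT side and 2 on the Qa-2- side, against 8.09% and 7.09% of all genes. Higher in WT were, among others, the receptor gene Rarb (1.27, SE 0.37), the degrading enzyme Cyp26b1 (1.15, SE 0.33) and the retinal reductase Dhrs3 (0.84, SE 0.19). Higher in Qa-2- were the retinol transporter Stra6 (-0.94, SE 0.36) and the synthesizing enzyme Aldh1a2 (-0.65, SE 0.25), which had 353 and 258 CPM in WT and 501 and 461 CPM in Qa-2-. Members of the pathway thus stood on both sides, and 0 passed after adjustment in edgeR.

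Of 9 genes that act with or downstream of Hoxa10 or Hoxa11 in the uterus, all were tested. At an unadjusted p under 0.05, the integrin gene Itgb3 (0.73, SE 0.25) and the cell cycle inhibitor Cdkn1a (1.0, SE 0.31) were higher in WT. The implantation cytokine Lif (-1.46, SE 0.31), the prostaglandin receptor Ptger4 (-0.71, SE 0.26) and the oestrogen receptor Esr1 (-0.60, SE 0.22) were higher in Qa-2-. Lif was low throughout, with 2.67 and 2.60 CPM in WT and 5.97 and 8.52 CPM in Qa-2-. The median of the 9 was -0.07. Among 15 genes of Müllerian duct patterning, 10 were tested (median -0.36), with Hand2 (0.63, SE 0.24) higher in WT and Pax2 (-1.45, SE 0.41), Msx1 (-1.14, SE 0.27) and Wnt5a (-0.53, SE 0.17) higher in Qa-2- at an unadjusted p under 0.05. Msx1, a homeobox gene of the uterine epithelium, and Pax2 had their highest level in Qa-2- replicate 2, as the HoxB members had. None of these genes had an adjusted p under 0.05 in edgeR, whereas with DESeq2 the adjusted p was 0.00597 for Lif, 0.0218 for Msx1, 0.0243 for Pax2 and 0.0289 for the retinal reductase gene Dhrs3.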

How the data were processed

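RNA sequencing was done on frozen uterine tissue of 2 WT and 2 Qa-2- mice. The paper speaks of whole uterine lysates, but it took only milligrams of frozen tissue for each RNA isolation. The place of that tissue along the uterus is not given. The values deposited by the authors are raw counts of read pairs per gene. Per the file headers, featureCounts 2.0.0 counted them by strand on GRCm38 exons at a mapping quality of at least 3, leaving out pairs with several positions or genes. The submitters' processing notes name STAR 2.7.3a and GRCm38.p6. Symbols were taken from GENCODE M21 (55240 identifiers matched) and promoters from RefSeq (22 of 39 members matched).

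Total counts were 33286390 to 41041299, and 1 CPM stands for 35.0 to 40.1 read pairs on the TMM scale printed, or 33.3 to 41.0 on the library totals that the filter used. The 14492 genes that reached 1 CPM in 2 or more libraries were normalized by TMM and tested with edgeR 4.0.16 (quasi-likelihood, two-sided, Benjamini-Hochberg over all genes) in R 4.3.3. The step was tested on simulated data. CPM are on TMM-scaled library sizes. Members and lists were chosen with earlier results of these data known, and all 39 members enter the counts and sums, although the values of 1 member and of some listed genes are not reported here. Of the other 19 lists, the genes at an unadjusted p under 0.05 or with the 2 largest and 2 smallest fold changes could be named, and the levels of Pgr, Krt5, Sprr3, Ovgp1, Tppp3, Ccdc153, Hotair, Hottip, Evx1, Evx2, Epcam, Ltf, Cxcl15, Hoxa11os, Hoxd3os1, Hoxb3os, Hoxb5os, Krt4, Prl8a2, Prl3d1 and Gcm1 were added after their values were seen. P-values measure the spread between these 4 libraries. Libraries of a group differed by more than sampling noise (206.7 and 129.8 chi-square per gene). Alternatives were DESeq2 1.42.0, upper-quartile factors, library totals, a robust fit, a replicate block, 10 or more counts in all samples, no filter, and leaving out each library.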

Additional observations from a re-analysis of the deposited data

How the results depend on the processing

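Hox members with an adjusted p under 0.05 numbered 0 under every alternative, DESeq2 included (0 to 0 when single libraries were left out). All 168 member fold changes kept their direction under the 8 alternatives with 4 libraries, and 74 of 84 did when 1 library was left out, where the lone library of a group is assumed to vary like the other group. The sign turned for Hoxa3 (-0.27 to 0.08), Hoxa9 (-0.58 to 0.26), Hoxa11 (0.00 to 0.58), Hoxb2 (-0.51 to 0.39), Hoxb7 (-0.77 to 0.28), Hoxc6 (-0.06 to 0.82), Hoxd4 (-0.66 to 0.07) and Hoxd11 (-0.26 to 0.54). The median of tested members was 0.22 with no filter, where more members were tested, and -0.09 to 0.08 with single libraries left out. Genes called numbered 0, against 700 with DESeq2, 61 with no filter and 0 to 93 with single libraries left out (93 without WT replicate 2). Library totals in place of TMM moved the median log2 fold change of all genes from 0.01 to -0.08. No pairing of mice is described. Deviations of same-numbered libraries from their group means correlated at -0.39 over 14492 genes. Swapping the numbers within a group would only turn this sign, so it cannot show whether mice were paired. With a replicate block 2 genes were called, members at an unadjusted p under 0.05 were 1 (higher in WT) and 0 (in Qa-2-), and genes were 717 and 614 against 1172 and 1027. With the crossed pairing, added after seeing the data, they were 1867 and 1758. With single libraries left out, members at an unadjusted p under 0.05 were 0 to 4 and 0 to 5, and genes 448 to 1006 and 370 to 1317. The WT minus Qa-2- difference ranged from 64.8 to 109 CPM for HoxA, -111 to -13.3 for HoxB, -0.635 to 3.23 for HoxC, 22.3 to 77.1 for HoxD, 4.77 to 18.3 percentage points for groups 9 to 13, and -0.00365 to 0.360 for the Hoxa10 to Hoxa11 ratio. The cause of these shifts was not tested. Depth limits members under 3 counts, and 2 libraries a group limit all tests.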

Other observations

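Among the 19 gene lists, the largest median log2 fold change was that of the markers of mesothelium, the lining of the outer uterine surface. All 6 had a log2 fold change above 0 (median 3.33), and 5 had an unadjusted p under 0.05, led by Nkain4 (4.43, SE 0.55) and Lrrn4 (4.15, SE 0.61). Upk3b stood at 23.7 and 17.1 CPM in WT and at 2.11 and 1.69 CPM in Qa-2-. Wt1, which stroma also expresses, overlapped between groups with 63.3 and 82.9 CPM in WT and 82.9 and 46.6 CPM in Qa-2-. No marker of the list passed edgeR's adjusted p under 0.05, and 4 of the 6 passed with DESeq2 (Upk3b, Lrrn4, Upk1b and Nkain4).

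Endometrial stroma and decidua markers had a median log2 fold change of 0.24 over 10 genes, with Lum (1.15, SE 0.37) and Hand2 (0.63, SE 0.24) higher in WT at an unadjusted p under 0.05. The decidual prolactin Prl8a2 stood at 109 CPM in WT replicate 1, 2.04 CPM in WT replicate 2, 3.92 CPM in Qa-2- replicate 1 and 13.3 CPM in Qa-2- replicate 2, while the sum of the list was 10600 and 18510 CPM in WT and 18360 and 9662 CPM in Qa-2-. With DESeq2, Dcn and Lum had an adjusted p under 0.05. Of 8 leukocyte markers 4 were tested (median 0.44), with 3 above 0 and 1 below. The macrophage marker Cd68 (0.76, SE 0.15) was higher in WT at an unadjusted p under 0.05 and had an adjusted p of 0.0208 with DESeq2. Csf1r (0.20, SE 0.36) and S100a9 (0.69, SE 0.77) overlapped between groups. Ptprc (-0.33, SE 0.16) went the other way without overlap, at 33.5 and 38.7 CPM in WT and 44.5 and 45.9 CPM in Qa-2-.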
